A study of Mus musculus with 9 samples.

Results

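The islands described here are stretches of the mouse genome that carried H3K27ac in naive CD8+ T cells lacking Tcf1 and Lef1 and had no matching stretch in wild-type cells. They were chosen from 2 lists of H3K27ac-enriched islands, 1 per genotype, as the islands of the double-knockout (dKO) list that lay on chromosomes 1 to 19, shared no base with an island of the wild-type (WT) list, held at least 300 reads and lay more than 1 kb from every site where transcription of a protein-coding gene starts (TSS). Of 82213 dKO islands, 3155 met the rule. Among the 81479 dKO islands on chromosomes 1 to 19, 26.3% had no WT overlap and 3.87% met the whole rule, so these shares are what the rule itself selected and carry no test. The 3155 dKO-only distal islands held 1477089 reads, 2.56% of all reads in dKO islands, and covered 16.6 Mb.

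H3K27ac marks histone H3 at active promoters and enhancers, and islands of the mark away from promoters are commonly read as candidate enhancers. Tcf1 (encoded by Tcf7) and Lef1 are HMG-box transcription factors that bind the same DNA word, act downstream of Wnt signals and help keep T cells in a naive or memory-like state. Effector differentiation of CD8+ T cells runs through factors such as Blimp-1 (Prdm1).

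Naive cells, sorted as GFP+ TCRbeta+ CD62Lhi CD44lo-med CD8+, came from the spleens of adult mice on a C57BL/6 background. Both groups carried an hCD2-Cre transgene and a GFP reporter at Rosa26. WT mice had intact alleles (Tcf7+/+ Lef1+/+) and dKO mice had floxed alleles of both genes (Tcf7 fl/fl with Lef1 fl/fl), labelled Tcf1-/-Lef1-/- after deletion. The hCD2-Cre transgene is most active in mature T cells, and the GFP gate kept cells in which Cre had acted. WT was represented by 4 H3K27ac samples with 1 input sample, and dKO by 3 with 1 input, but each list was called on 1 pool per genotype, so there is no replicate check of any difference given here. The intervals are 95% Wilson intervals and cover counting error only, since the reads carry no molecular identifiers and may repeat a molecule, and neighbouring islands are not independent of each other.

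The WT pool was the deeper one, with 82668007 reads in 65563 islands against 57665047 reads in 82213 dKO islands. An island's read count is therefore also given per kb of its width and in CPM, the usual depth-scaled unit, here with the island reads of its own list as the total. The part of this difference in depth in which islands were called was not tested. Promoter islands were present at 10 of 10 T cell marker genes in both lists. Promoter islands also stood at 5 of 5 B cell and 6 of 6 myeloid marker genes in dKO and at 4 of 5 and 5 of 6 in WT. The genes marked in dKO alone were Pax5 (1672 reads) and S100a8 (147 reads). For NK cell, erythroid and CD4 lineage markers, the 2 lists were alike, at 2 of 3, 2 of 3 and 2 of 2. The part of these promoter islands in the differences was not tested. In these bulk cells, more cells with the mark and more of the mark per cell cannot be told apart.

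The sequences of 7 windows inside dKO-only distal islands are shown. Of these, 5 are listed by the study as chromatin-accessible sites whose DNase I sensitivity differed between the genotypes. The other 2 are the central 300 bases of the island with the most reads near Prdm1 and of that near Runx2, genes for lymphocyte transcription factors. They are shown as the sequence of leading islands and have no accessibility evidence. Each of the 7 windows is read 5′ to 3′ on the plus strand of the mm9 (NCBIM37) assembly and overlaps no annotated exon. The site in an intron of 1810011H11Rik (chr14:33611701-33611865), the site upstream of Csf1 (chr3:107599588-107599729) and the site in an intron of Chn2 (chr6:54178988-54179139) were more accessible in dKO cells and were linked to genes with higher RNA there. The site in an intron of Lamc1, shown by its central bases (chr1:155167313-155167612), was less accessible in dKO and linked to a gene with higher RNA. The site upstream of Ankrd55, in an island 153.9 kb from its TSS (chr13:112923986-112924161) was less accessible and linked to a gene with lower RNA. The last 2 windows are from islands near Prdm1 (chr10:44139251-44139550) and Runx2 (chr17:44635051-44635350). Capitals mark words of the motifs that were searched in all islands, on either strand.
1810011H11Rik site: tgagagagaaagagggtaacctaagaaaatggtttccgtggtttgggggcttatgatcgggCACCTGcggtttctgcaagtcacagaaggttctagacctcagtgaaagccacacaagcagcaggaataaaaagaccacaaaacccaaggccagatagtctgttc
Csf1 site: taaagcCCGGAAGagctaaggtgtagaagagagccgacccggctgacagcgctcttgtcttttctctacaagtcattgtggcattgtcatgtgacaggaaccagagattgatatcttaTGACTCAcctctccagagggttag
Chn2 site: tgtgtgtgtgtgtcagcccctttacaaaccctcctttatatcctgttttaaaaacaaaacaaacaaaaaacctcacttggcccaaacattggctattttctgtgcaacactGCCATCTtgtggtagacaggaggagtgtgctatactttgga
Lamc1 site: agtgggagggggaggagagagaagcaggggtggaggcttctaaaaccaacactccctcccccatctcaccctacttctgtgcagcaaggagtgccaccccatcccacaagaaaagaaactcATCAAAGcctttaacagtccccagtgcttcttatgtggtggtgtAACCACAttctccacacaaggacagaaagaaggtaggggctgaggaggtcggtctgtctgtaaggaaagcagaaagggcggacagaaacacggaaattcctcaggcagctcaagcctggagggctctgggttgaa
Ankrd55 site: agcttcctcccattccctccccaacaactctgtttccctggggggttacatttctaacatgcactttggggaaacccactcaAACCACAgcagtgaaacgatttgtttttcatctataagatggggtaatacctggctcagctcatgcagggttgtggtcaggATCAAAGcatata
Prdm1 island centre: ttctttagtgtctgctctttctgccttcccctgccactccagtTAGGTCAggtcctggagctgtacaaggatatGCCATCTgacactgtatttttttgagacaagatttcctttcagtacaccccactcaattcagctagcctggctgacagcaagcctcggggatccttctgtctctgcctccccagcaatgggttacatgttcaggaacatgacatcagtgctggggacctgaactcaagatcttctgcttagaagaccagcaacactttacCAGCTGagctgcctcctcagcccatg
Runx2 island centre: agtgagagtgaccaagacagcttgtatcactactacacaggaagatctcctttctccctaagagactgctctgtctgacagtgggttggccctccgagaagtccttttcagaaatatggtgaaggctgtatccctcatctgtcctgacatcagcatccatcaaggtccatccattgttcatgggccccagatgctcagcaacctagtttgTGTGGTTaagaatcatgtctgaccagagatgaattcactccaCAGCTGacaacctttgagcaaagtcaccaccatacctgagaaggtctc

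Counting from 1 at the 5′ end of each printed window, the word of Tcf1 and Lef1 (CTTTGAT, printed here as its reverse complement ATCAAAG) stood at bases 122 to 128 of the Lamc1 site and at bases 164 to 170 of the Ankrd55 site. Both of these windows also held a Runx word (AACCACA), at bases 166 to 172 and 83 to 89. Neither word was present in the windows of 1810011H11Rik, Csf1, Chn2 or Prdm1. The Csf1 window held an Ets word (CCGGAAG, bases 7 to 13) and an AP-1 word (TGACTCA, bases 119 to 125). The Chn2 window held a word of the CTCF motif (GCCATCT, bases 112 to 118) and the 1810011H11Rik window an E-box (CACCTG, bases 62 to 67). The Prdm1 window held a ROR word (TAGGTCA) at bases 44 to 50, a CTCF word at bases 75 to 81 and an E-box (CAGCTG) at bases 275 to 280. The Runx2 window held a Runx word (TGTGGTT, bases 211 to 217) and an E-box that starts at base 253. A word is a match of letters, not a measured binding site.

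The dKO-only distal islands were modest in size. Their median read count was 393 (range 300 to 4786), their median width 4.6 kb (1.8 to 34.2 kb) and their median density 86.8 counts per kb (63.5 to 738). For comparison, the 23789 dKO islands that met the same count and distance limits but overlapped a WT island had a median of 582 reads over 5.6 kb and 104 counts per kb, and the 3101 WT-only islands chosen by the mirror rule had 397 reads over 3.4 kb and 119 counts per kb. Since the WT pool was deeper, the same minimum of 300 reads is a lower scaled limit in the WT list. After scaling, the medians were 1.51 CPM per kb for the dKO-only, 1.80 for the shared dKO and 1.44 for the WT-only islands. Reads of 1000 or more were held by 88 dKO-only islands (2.79%) and by 24.4% of the shared ones, and 115 (3.65%) were wider than 10 kb against 19.2% of shared and 1.39% of WT-only islands. Most of the set lay close to the count limit: 24 distal dKO-only islands held exactly 300 reads and 23 more, at 299, were left out. The islands just inside lay near Fam178b and Pdss2, at 300 reads each, and those just outside near Slc41a2 and Cpsf6. At the distance limit, islands 1034 bp from the TSS of Dcun1d1 and 1042 bp from that of Alg2 were kept, and islands at 985 bp (Ift140) and 978 bp (Chit1) were not.

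**Figure D1:**
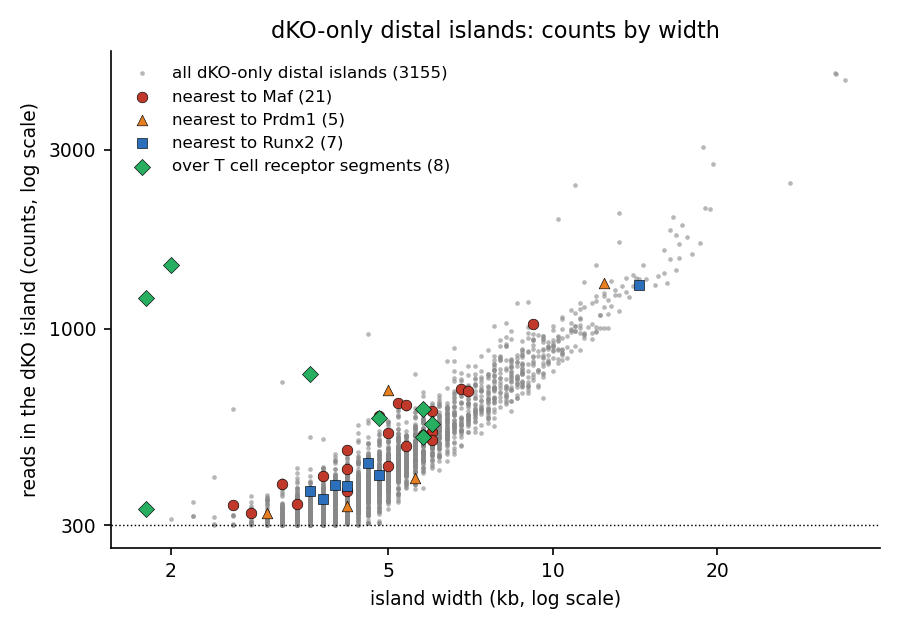
Reads in each of the 3155 dKO-only distal islands (vertical axis, counts, log scale) against its width (horizontal axis, kb, log scale), 1 point per island, with the islands nearest to Maf, Prdm1 and Runx2 and those over T cell receptor segments in colour. Most islands follow 1 band near 86.8 counts per kb, and the 2 narrow receptor segment islands at 1476 and 1207 reads stand above it.

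How far these islands were from WT acetylation was asked next, since no base of overlap still allows a WT island next door. Of the 3155 islands, 700 (22.2%) lay within 1 kb of a WT island and 1854 (58.8%, interval 57.0 to 60.5%) within 5 kb, with a median gap of 3.8 kb. The mirror WT-only islands had the same median gap to the dKO list, 3.8 kb, and 57.7% lay within 5 kb. At longer range the 2 sets differed: 78.1% (76.6 to 79.5%) of the dKO-only islands and 72.6% (71.0 to 74.1%) of the WT-only islands lay within 10 kb of the other list, and 72 (2.28%) and 181 (5.84%) lay more than 50 kb away. Among distal autosomal islands of at least 300 reads, 11.7% of 26944 dKO islands had no WT overlap and 9.28% of 33427 WT islands had no dKO overlap. Of the dKO-only islands, 908 (28.8%) lay within 1 kb of a shared dKO island and 1893 (60%) within 5 kb. These shares were not taken for other classes of islands. Among the 16667 distal dKO-only islands of under 300 reads, 56.6% lay within 5 kb of a WT island, so such closeness was not particular to the set.

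Only 17 dKO-only islands (0.539%) lay more than 100 kb from any WT island, against 83 WT-only islands (2.68%) in the mirror comparison. The farthest of the set, named after their values were seen, was an island of 302 reads in an intron of Thsd7b (chromosome 1, 131512001 to 131515400), 739.8 kb from the nearest WT island. An island of 492 reads lay 530.8 kb from WT acetylation, with Mki67, the gene of the proliferation marker Ki-67, as its nearest gene at 551.3 kb. A pair of islands downstream of Fam20c, which encodes a kinase of the secretory pathway, held 375 and 456 reads at 187.2 and 176.6 kb from a WT island, and an island of 338 reads in an intron of Stk3, a kinase of the Hippo pathway, lay at 172.8 kb.

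**Figure D2:**
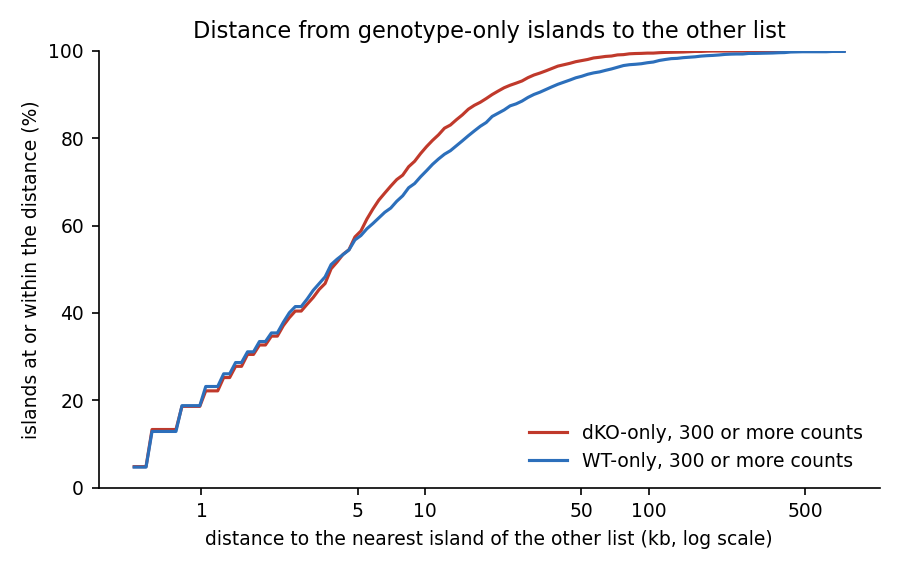
Share of dKO-only and of WT-only distal islands of at least 300 reads (vertical axis, %) that lie at or within a given distance of the nearest island of the other list (horizontal axis, kb, log scale). The curves meet near 5 kb (58.8% and 57.7%) and the dKO-only curve is higher at 10 kb (78.1% and 72.6%).

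With respect to protein-coding genes, 1167 dKO-only islands (37%, 35.3 to 38.7%) touched none and are called intergenic. Introns of such genes wholly held 791 (25.1%), and 1197 (37.9%) touched an exon of one. The intergenic share was lower than among shared dKO islands (48.6%) and WT-only islands (50.7%). Since a wide island touches an exon more readily and the dKO-only islands were wider than the WT-only ones, the context of the middle base alone was also taken. By that measure 39.97% (38.3 to 41.7%) of dKO-only, 51.5% (50.8 to 52.1%) of shared and 52.2% (50.5 to 54.0%) of WT-only islands were intergenic, so the dKO-only share was again the lowest. The dKO-only islands also lay closer to genes, at a median of 18.7 kb from the nearest TSS against 26.5 kb for the WT-only and 21.7 kb for the shared islands. A distance over 100 kb was found for 317 dKO-only (10.05%), 12.6% of shared and 16.8% of WT-only islands. Per chromosome, their density ran from 0.865 per Mb on chromosome 3 to 1.99 per Mb on chromosome 17, around a mean of 1.28.

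The islands with the most reads formed a few wide blocks. A run of 3 blocks on chromosome 14 led the set, with 4583 reads in Entpd4, which encodes a nucleotidase of the Golgi and lysosomes (69962201 to 69996400), 4775 reads in Loxl2, a lysyl oxidase family gene (70021201 to 70054200), and 4786 reads in an island that overlapped Loxl2 and had R3hcc1 as its nearest gene by TSS (70054801 to 70087600). The Loxl2 block lay 50.4 kb from the nearest WT island, while the Entpd4 block lay 2.8 kb from one and 0.6 kb from a shared dKO island. On chromosome 7, islands of 3042 reads (149939201 to 149958000) and 2408 reads (149923801 to 149934800) lay upstream of the insulin gene Ins2, 133.6 and 156.8 kb from WT acetylation. An island of 2740 reads lay 18.3 kb upstream of Eps8l3, 73.0 kb from a WT island (chromosome 3, 107642201 to 107661800). Between 93.6 and 99.5% of the 50-base words in these 6 islands occurred once in the genome. The other wide islands of highest count were close to WT acetylation. They lay upstream of Plcg2, a phospholipase of antigen receptor signalling, with 2451 reads at 1.0 kb from a WT island, in the adenylate cyclase gene Adcy7, with 2096 reads at 0.6 kb, in Baiap2, which encodes an actin regulator, with 2082 reads at 0.8 kb, and in an intron of Hivep3, with 2031 reads at 2.4 kb.

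By density the set was narrow. Only 7 islands held more than 200 counts per kb, and 14 held more than 150. At the same CPM per kb, 3 and 19 of the 3101 WT-only islands passed these limits. The densest of all stood over T cell receptor segments. An island of 1476 reads over the receptor segment Gm5770 (chromosome 14, 54173401 to 54175400) reached 738 counts per kb, or 12.8 CPM per kb, although only 82.5% of its 50-base words were unique. An island of 1207 reads over Trbv13-3, a variable segment of the beta chain (chromosome 6, 41079001 to 41080800), reached 671 counts per kb with 100% unique words. Another lay over Trdj2, a joining segment of the delta chain, with 756 reads and 210 counts per kb. In all, 8 dKO-only islands overlapped receptor segments, the others being at Trav17 (578 reads), Trav18 (558), Gm13893 (516), Gm13892 (331) and Trbv29 (610), and no WT-only island of at least 300 reads did. The annotation gives T cell receptor segments the same type as immunoglobulin segments, and the search did not separate them. Of all distal islands over segments of this type, whatever their count, 41 of 147 in the dKO list and 2 of 104 in the WT list were found in that list alone. In dKO this is 27.9% (21.3 to 35.6%), near the 30.1% of all distal autosomal dKO islands, and in WT it is 1.92% (0.529 to 6.74%), below the 17.3% of all distal autosomal WT islands. Outside the receptor loci, the densest islands lay 8.6 kb upstream of Xcr1, the receptor of the chemokine XCL1 (612 reads, 235 counts per kb), and upstream of the interferon-inducible GTPase gene Gvin1 (721 reads, 225 counts per kb), where 68.8% of the words were unique.

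The islands were partly clustered. When neighbouring islands were grouped at the distance commonly used to stitch enhancers, the 3155 fell into 2691 groups, of which 2334 were single islands, 282 were pairs and 75 held 3 or more, 257 islands in all. The group with the most islands lay downstream of Maf, with 7 islands and 3776 reads over 61.6 kb (chromosome 8, 118069201 to 118130800) and no WT island within it. A group of 6 islands spanned 54.6 kb between Clic5 and the 3′ part of Runx2 (3845 reads, chromosome 17, 44587801 to 44642400), again with no WT island. Groups of 5 lay at Bcar1 and Cfdp1 (3179 reads over 53.6 kb), at Arl15 and Ndufs4 (2685 reads over 38.6 kb), both without WT islands, and at Tlr2, a receptor for bacterial lipoproteins (3063 reads over 51.4 kb), where WT islands covered 1.8 kb.

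Each island was then assigned to the gene with the nearest TSS, to ask how the set related to RNA changes that the study listed from separate RNA-seq libraries of the same cell type. An assignment by distance is not a measured contact. Of 21281 autosomal protein-coding genes, 2197 (10.3%) were nearest to at least 1 dKO-only distal island, and 1960 (9.21%) to a WT-only one, with 402 genes nearest to both kinds. Among the 281 genes listed with higher RNA in dKO, 63 (22.4%, 17.9 to 27.6%) had a dKO-only island and 18 (6.41%, 4.09 to 9.90%) a WT-only island. Among the 236 genes listed with lower RNA, 25 (10.6%, 7.28 to 15.2%) had a dKO-only island, close to the share of all genes, and 53 (22.5%, 17.6 to 28.2%) had a WT-only island. Genes with a dKO promoter island were a closer background for active genes, and 14.1% of these 13735 genes had a dKO-only and 11% a WT-only distal island. Of the upregulated genes with such a promoter island, 62 of 274 (22.6%, 18.1 to 27.9%) had a dKO-only distal island.

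Genes rich in enhancers of any kind have more chances to be nearest to an island, so the rate per island was also taken. Among all distal autosomal dKO islands of at least 300 reads nearest to an upregulated gene, 167 of 1132 were dKO-only (14.8%, 12.8 to 16.9%), against the 11.7% for the islands of all genes. Without Maf, which alone contributed 21, the rate was 146 of 1090 (13.4%, 11.5 to 15.5%), an interval that holds the background. The clearer contrast was on the WT side, where 21 of 1188 WT islands near upregulated genes were WT-only (1.77%, 1.16 to 2.69%) against the 9.28% for the islands of all genes. Near downregulated genes, 48 of 703 dKO islands were dKO-only (6.83%, 5.19 to 8.94%) and 131 of 897 WT islands were WT-only (14.6%, 12.4 to 17.1%). The dKO-only share was thus below that of all genes where RNA was lower in dKO, relative to how many distal islands those genes had.

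**Figure D3:**
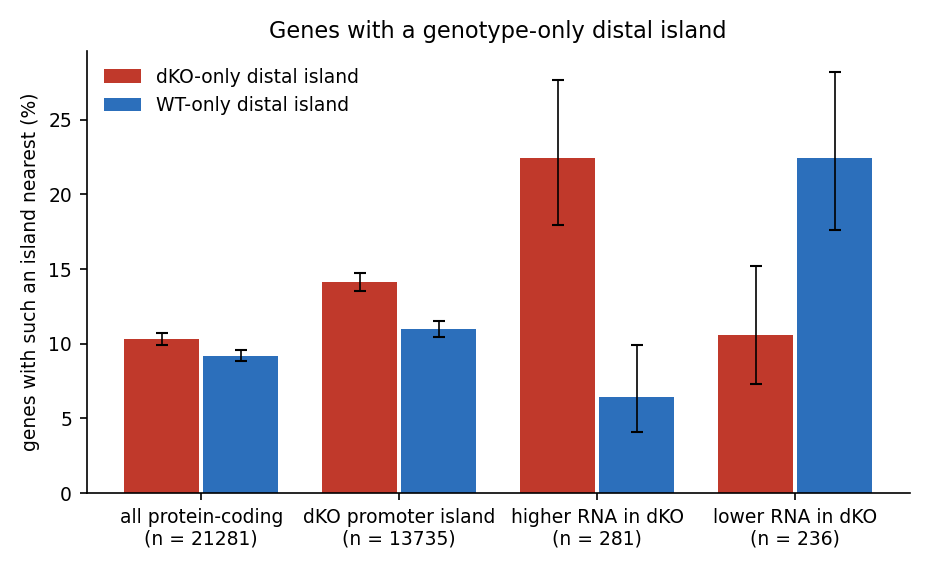
Percent of genes (vertical axis) that are nearest to at least 1 dKO-only or WT-only distal island of 300 or more reads, for all autosomal protein-coding genes, genes with a dKO promoter island, and genes that the study listed with higher or lower RNA in dKO (horizontal axis, with the number of genes). Bars are shares and error bars 95% Wilson intervals. The dKO-only bar is highest for genes with higher RNA (22.4%) and the WT-only bar for genes with lower RNA (22.5%).

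Genes with many dKO-only islands were few. Most of the 2197 genes had a single one (1643), 205 had 3 or more and 49 had 5 or more. Of these 49, 13 were in the list with higher RNA and 3 in the list with lower RNA, while of 74 genes with 5 or more WT-only islands, 0 were in the first list and 4 in the second. The 2 lists hold 281 and 236 of the 21281 autosomal protein-coding genes. These counts make no allowance for how many distal islands each gene had. The leading genes of the first list by summed reads were Maf (21 islands, 10922 reads), Hivep3 (6 islands, 4168 reads), Chn2 (7 islands, 4034 reads), 1190002N15Rik (7 islands, 3748 reads), Runx2 (7 islands, 3641 reads) and Rap1gap2 (5 islands, 3514 reads). The leading genes of the second list were Ankrd55 (6 islands, 3592 reads), Slc39a11 (9 islands, 3292 reads) and Tlr2 (5 islands, 3063 reads). Runs of dKO-only islands thus stood near genes with lower as well as higher RNA.

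Maf, which encodes the bZIP transcription factor c-Maf, had by far the most. Its 21 islands stretched over 446.2 kb of chromosome 8 (117811801 to 118258000), with 19 downstream of the TSS and 2 upstream, at distances of 7.0 to 415 kb. They held 323 to 1028 reads each at 84.5 to 131 counts per kb, and no WT-only island was nearest to Maf. The island with the most reads, 1028 over 9.2 kb, lay 17.1 kb upstream. An island of 487 reads lay inside the gene, and 19 of the 21 touched no protein-coding gene. Their gaps to WT islands ran from 0.6 to 29.8 kb. Across the whole stretch, the dKO list had 57 islands, made of the 21, 17 weaker dKO-only islands and 19 shared ones, and these covered 356.0 kb or 79.8% of it. The WT list had 24 islands that covered 87.8 kb, or 19.7%. WT cells were thus not without acetylation near Maf: a WT island of 1032 reads stood at the promoter, from -0.9 to 2.3 kb of the TSS.

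**Figure D4:**
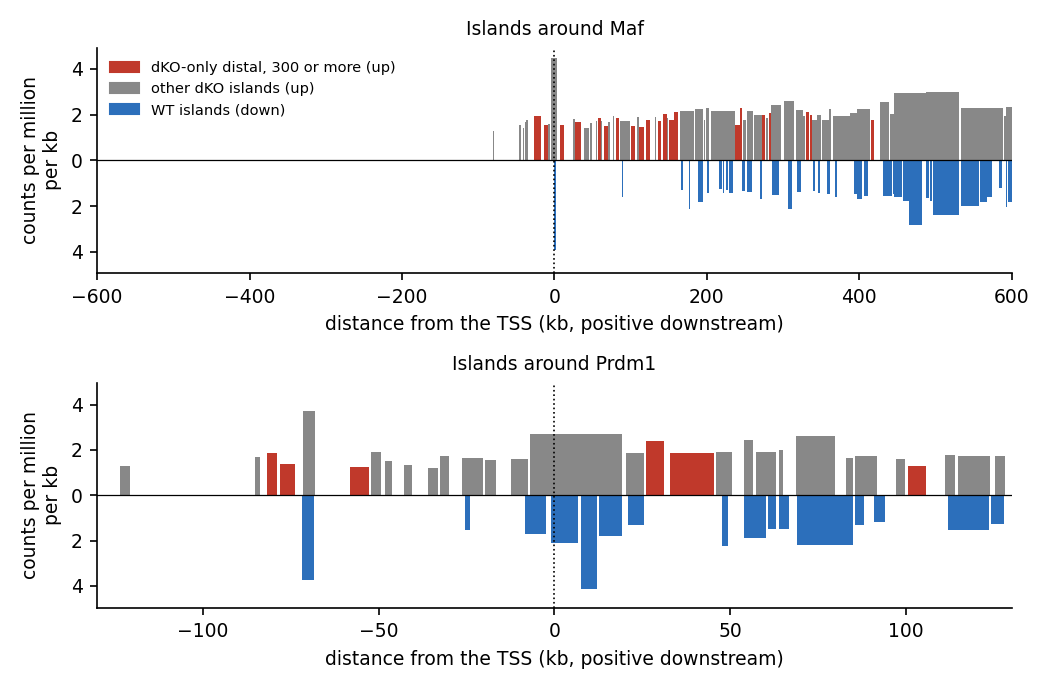
H3K27ac islands around Maf and Prdm1, drawn as boxes over their extent (horizontal axis, distance in kb from the TSS, positive downstream) with a height equal to their CPM per kb (vertical axis), dKO islands up and WT islands down. The dKO-only distal islands fill much of the stretch downstream of Maf where few WT islands stand, and at Prdm1 they lie on both sides of a promoter that is marked in both lists, the rightmost of them being nearest to another gene.

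Prdm1 encodes Blimp-1, a repressor that drives terminal effector and plasma cell differentiation. Of its 5 islands, those beyond the 3′ end held 1324 reads (chromosome 10, 44133201 to 44145600) and 688 reads (44147401 to 44152400), at 107 and 138 counts per kb. They lay 33.0 to 45.4 kb and 26.2 to 31.2 kb downstream of the coding TSS, 2.4 and 0.6 kb from a WT island. The other 3 lay upstream of the coding TSS, around the start of a non-coding Prdm1 transcript that begins farther upstream, and held 400 reads (44231201 to 44236800), 337 reads (44252401 to 44256600) and 324 reads (44257401 to 44260400). Over the 127.2 kb from the first to the last of them, dKO islands covered 71.2% and WT islands 26.6%. The promoter itself was marked in both lists, with 4069 reads in a dKO island from -7.0 to 19.2 kb and, over the same stretch, 4 WT islands of 854, 1315, 1502 and 959 reads between -8.4 and 19.2 kb.

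Runx2, a Runt-domain factor best known from bone formation and also present in lymphocytes, had 7 islands at 157 to 269 kb from its nearest TSS. Of these, 5 lay in and beyond its 3′ part, the widest with 1305 reads over 14.4 kb (chromosome 17, 44628001 to 44642400), and the other 2, with 385 and 352 reads, lay in introns of the neighbouring gene Supt3h. A WT-only island of 389 reads was also nearest to Runx2. Over 612.6 kb, dKO islands covered 63.5% and WT islands 42.0%. Hivep3, a large zinc-finger protein gene, had 5 islands of 316 to 749 reads besides the intronic one of 2031, and its 245.6 kb were covered to 84.3% in dKO and 36.0% in WT. In Chn2, which encodes the Rac-specific GTPase activator beta2-chimaerin, the 7 islands held 394 to 808 reads. Its 203.6 kb were covered to 86.8% in dKO and 49.2% in WT, and the accessible site printed above lies in its island of 583 reads.

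Similar stretches were seen at 1190002N15Rik (236.2 kb, 58.7% covered in dKO and 18.5% in WT) and at Rap1gap2, which encodes a GTPase activator of Rap1 (159 kb, 85.2% and 33.8%). At Nrp2, which encodes the semaphorin and VEGF receptor neuropilin-2 and is also in the list with higher RNA, 6 islands with 2535 reads in all spanned 54.0 kb, of which dKO islands covered 73.0% and no WT island any. Outside this span, a WT-only island of 490 reads was also nearest to Nrp2. At Itpr1, a calcium channel gene of the endoplasmic reticulum in neither list, 5 islands spanned 66.6 kb, covered to 50.8% in dKO and free of WT islands. Among genes in neither list, Aff3 had 12 islands over 533 kb (48.5% covered in dKO and 28.0% in WT) and the activin receptor gene Acvr2a had 10 over 432.2 kb (44.1% and 17.7%). At the genes with lower RNA the covers in dKO and WT were 67.2% and 14.9% at Ankrd55, 75.1% and 3.50% at Tlr2, and 80.5% and 54.1% at the zinc transporter gene Slc39a11. These spans run from the first to the last dKO-only island, so a higher cover in dKO follows in part from how they were drawn.

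Transcription factors of effector cells were the functional list with the most dKO-only islands, but 21 of its 40 islands were those of Maf. Of 26 such genes, 9 (34.6%, 19.4 to 53.8%) had at least 1, against 10.3% of all genes and 14.1% of genes with a dKO promoter island, and 7 had a WT-only island, with 31 in all. Besides Maf, Runx2 and Prdm1, Nfil3 had 2 islands with 652 reads, Tox had 1 with 480 and Batf3 had 1 with 465. Gata3, which is also in the list with higher RNA, had 1 island of 358 reads at 597 kb. Relative to all distal dKO islands of the 26 genes, the dKO-only share was 12.8% (9.56 to 17.0%), near the 11.7% for the islands of all genes, and without Maf it was 19 of 270 (7.04%, 4.55 to 10.7%), below it. Of 19 cytotoxic effector genes, 3 (15.8%, 5.52 to 37.6%) had a dKO-only island, an interval that holds both background shares of genes. Serpinb9 (408 reads), which encodes an inhibitor of granzyme B, and the granzyme genes Gzmk (383 reads) and Gzma (342 reads, 19.04 kb from the TSS) had 1 island each, none had a WT-only island, and no dKO-only island was nearest to Gzmb or Ccl5.

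Among receptors, 4 of 24 cytokine receptor genes (16.7%, 6.68 to 35.9%) had a dKO-only island and 1 had a WT-only one. The subunits of the type I interferon receptor, Ifnar1 and Ifnar2, had 2 each, with 1023 and 804 reads, Tgfbr1, a TGF-beta receptor, had 1 with 435 and Il6st, the shared gp130 subunit, had 1 with 391. Of 17 chemokine and sphingosine receptor genes, Xcr1 alone had one. Of 17 integrin genes, 4 had a dKO-only and 2 a WT-only island, led by Itgb5 (3 islands, 2070 reads) and by both subunits of LFA-1, Itgal (1 island, 1687 reads) and Itgb2 (2 islands, 1110 reads). Of 18 costimulatory and inhibitory receptor genes, Cd83 (3 islands, 1064 reads) and Icos (1 island, 335 reads) had dKO-only islands, both also had WT-only ones, and 4 genes had WT-only islands. No dKO-only island was nearest to Ctla4 or Nrp1, and of 13 genes associated with regulatory T cells only Swap70 had one (352 reads). For each of these 5 lists, the interval of the share of genes with a dKO-only island holds the 10.3% of all genes and the 14.1% of genes with a dKO promoter island. By distal dKO islands, 4 of 117 near costimulatory and inhibitory receptor genes were dKO-only (3.42%, 1.34 to 8.46%). For the regulatory T cell genes it was 1 of 62 (1.61%, 0.285 to 8.59%). Both shares lay below the 11.7% for the islands of all genes, which the intervals of the other lists hold. The WT-only share of the regulatory T cell genes, 1 of 73 (1.37%, 0.242 to 7.36%), was also below its background of 9.28%.

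Genes of the naive and memory state had few islands of either genotype alone for the number of distal islands around them. On the WT side, 4 of their 207 distal islands were WT-only (1.93%, 0.754 to 4.86%, against 9.28% for the islands of all genes). Of 18 such genes of the naive and memory state, Actn1, which encodes alpha-actinin-1 (1888 reads), and the quiescence factor gene Foxp1 (685 reads) had 1 each, so that 2 of their 215 distal dKO islands were dKO-only (0.930%, 0.255 to 3.33%, against 11.7% for the islands of all genes). Of 19 T cell identity genes, Thy1 (600 reads), the signalling regulator Ubash3a, the kinase gene Zap70 (302 reads) and Bcl11b, a T lineage factor gene (300 reads), had 1 each, or 4 of their 67 distal dKO islands (5.97%, 2.35 to 14.4%), an interval that holds the share for the islands of all genes. Of 19 Notch and Wnt pathway genes, 3 had 1 each, namely the corepressor gene Tle4 (358 reads), the Notch coactivator gene Maml2 (325 reads) and Tcf7l2, a paralog of Tcf7 (318 reads), and 5 had WT-only islands. No dKO-only island was nearest to Tcf7 or Lef1 themselves. The closest lay 263 kb from Tcf7 and 288 kb from Lef1, and 12 and 8 lay within 5 Mb of the genes, where 8 and 28 WT-only islands lay.

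Identity genes of other lineages were looked at in the same way. Of 15 B cell genes, 4 had a dKO-only island, namely the kinase gene Blk (2 islands, 990 reads), the adaptor gene Blnk (523 reads), Sykb, the annotation's symbol for Syk (373 reads), and Bank1 (325 reads), and 4 had a WT-only island. Of 8 natural killer (NK) cell genes and 17 myeloid genes, 0 had a dKO-only island. Per distal dKO island, the dKO-only share was 5 of 27 (18.5%, 8.18 to 36.7%) for the B cell genes. It was 0 of 12 (0 to 24.2%) for the NK genes and 0 of 17 (0 to 18.4%) for the myeloid genes. These intervals all hold the 11.7% for the islands of all genes, so the lists were not told apart. The study's longer lists of lineage-enriched genes gave shares of genes with a dKO-only island of 18.3% for pan-T, 14.0% for B, 17.3% for pan-NK, 11.8% for granulocytes, 16.3% for conventional and 18.6% for plasmacytoid dendritic cells, and 13.6% for monocytes. The WT-only shares were 17.6, 16.0, 10.7, 11.9, 8.95, 14.8 and 12.3% in the same order. For effector CD8+ T cell genes the shares were 16.8% (13.0 to 21.4%) dKO-only and 12.1% (8.86 to 16.3%) WT-only, with Rap1gap2, Prdm1 and Serp2 leading by reads. Within the T lineage, the dKO-only shares were 17.5% for regulatory T cell genes, 12.4% for gamma delta T cell genes, 9.09% (4 of 44) for naive CD8+ and 6.90% (2 of 29) for naive CD4+ T cell genes. They are to be read against the 10.3% of all genes and the 14.1% of genes with a dKO promoter island. Relative to distal dKO islands, the dKO-only shares were 5.75% (4.12 to 7.96%) for pan-T and 8.1% (6.25 to 10.5%) for pan-NK genes. They were 8.95% (7.34 to 10.9%) for granulocyte and 7.47% (5.49 to 10.1%) for regulatory T cell genes. These intervals lay below the 11.7% for the islands of all genes, and those of the study's other lineage lists held it. Relative to distal WT islands, the WT-only shares of pan-T and pan-NK genes, 7.05% and 4.91%, were also below their 9.28%.

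The study listed super-enhancers (SEs), clusters of enhancers with high H3K27ac, whose signal was stronger in 1 genotype. The list holds only SEs linked to genes that the study counted as up- or downregulated, and its other differing SEs were not searched. The SEs were called on these same libraries, so they are not independent evidence. Of the dKO-only islands, 240 (7.61%) lay in listed SEs stronger in dKO, against 5.12% of all distal dKO islands of at least 300 reads, and 65 of the 88 such SEs held at least 1. The SE at Maf held 24 of them and those at Hivep3 and Chn2 held 10 each. Listed SEs stronger in WT held 20 dKO-only islands (0.634%, background 2.06%) and 61 WT-only ones. Chromatin interaction hubs come from Hi-C libraries, which are other libraries of the study. Listed hubs are likewise only those with a promoter of such a gene, a part of the differing hubs that the study found. Hubs listed as stronger in WT held 10 dKO-only islands (0.317%, background 1.12%). The 35 listed as stronger in dKO held 15 (0.475%, background 0.501%), a share near the background for these hubs, and the unlisted hubs were not searched.

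Few of the listed accessible sites with a changed DNase I signal fell into these islands. The list holds only sites that the study linked to genes it counted as up- or downregulated. Its other changed sites were not searched. The 131 listed autosomal sites that were more open in dKO and linked to genes with higher RNA fell into 53 shared dKO islands and 3 dKO-only ones, 0.0951% of the dKO-only set against 0.208% of all distal dKO islands of at least 300 reads. The 3 were the island of 1036 reads in 1810011H11Rik (126 counts per kb, 7.0 kb from a WT island), the island of 473 reads 34.2 kb upstream of Csf1, the gene of the macrophage growth factor M-CSF (98.5 counts per kb, 28.4 kb from a WT island), and the Chn2 island of 583 reads. Of 79 sites less open in dKO but linked to genes with higher RNA, 1 fell in a dKO-only island, that of 583 reads in the laminin gene Lamc1, and of 97 sites less open and linked to genes with lower RNA, 1 did, in the island of 321 reads near Ankrd55. The remaining listed group of 11 sites had none.

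The central 1000 bp of each island was searched for short words of 13 transcription factor motifs, on both strands, and compared with the WT-only islands and with all 2393222 windows of that length tiled over chromosomes 1 to 19. A TCF/LEF word (CTTTGAA or CTTTGAT) stood in 30.7% (29.1 to 32.3%) of dKO-only islands, against 36.3% (34.6 to 37.99%) of WT-only islands, 34.1% of shared dKO islands and 37.9% of all windows. The dKO-only islands were richer in G and C (median 46.8% against 44.6% and 45.6%), and the windows of the genome had a mean of 41.9%, so the words were also counted within 3 bins of GC content, cut so that each held about the same number of islands of both sets together. The dKO-only and WT-only shares were then 36.3 and 40.7%, 31.6 and 34.6%, and 27.5 and 29.5% from the lowest to the highest bin, so the dKO-only share was lower in each, but the intervals of the 2 sets overlapped within every bin (25.2 to 29.9% and 26.2 to 33.0% in the highest).

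Words of other motifs differed both ways. E-boxes (CAGCTG or CAGGTG) stood in 76.2% (74.6 to 77.6%) of dKO-only and 71.0% (69.4 to 72.5%) of WT-only islands, with 61.5% of all windows. Words of the CTCF motif (AGGGGGC or AGATGGC) stood in 34.5% (32.8 to 36.1%) and 29.5% (27.9 to 31.1%), with 27.8% of all windows. IRF words (GAAANNGAA) were lower in dKO-only islands, at 25.1 and 29.99% (33.2% of all windows), as were STAT words (TTCNNNGAA), at 25.8 and 29.1% (32.1%), and NFAT words (TGGAAAA), at 21.9 and 25.2% (29.7%). The intervals of the 2 sets overlapped for KLF words (CCCACCC or CCCGCCC), at 32.5 and 29.7% (25.5%), GATA words (AGATAAG), at 11.7 and 13.9% (14.1%), Runx words (TGTGGTT), at 23.5 and 23.0% (21.5%), AP-1 words (TGANTCA), at 27.4 and 28.2% (26.7%), T-box words (GGTGTGA), at 14.9 and 14.1% (12.6%), Ets words (AGGAAGT or CCGGAAG), at 27.7 and 29.8% (24.2%), and ROR words (TAGGTCA), at 10.1 and 10.3% (9.91%).

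Few of these differences stood apart within the bins of GC content. The intervals of the 2 sets overlapped in every bin for E-boxes (67.4 and 65.2%, 74.9 and 72.8%, 81.2 and 80.6% from the lowest to the highest bin) and for the CTCF words (30.4 and 27.3%, 32.6 and 30.7%, 37.8 and 32.4%). Of the 13 motifs in 3 bins, the intervals stood apart once, for Runx words in the highest bin, with 23.7% (21.5 to 25.99%) of dKO-only and 17.7% (15.1 to 20.8%) of WT-only islands. None of the 3155 islands had fewer than 50% unique 50-base words, and the median was 98.6%.

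**Figure D5:**
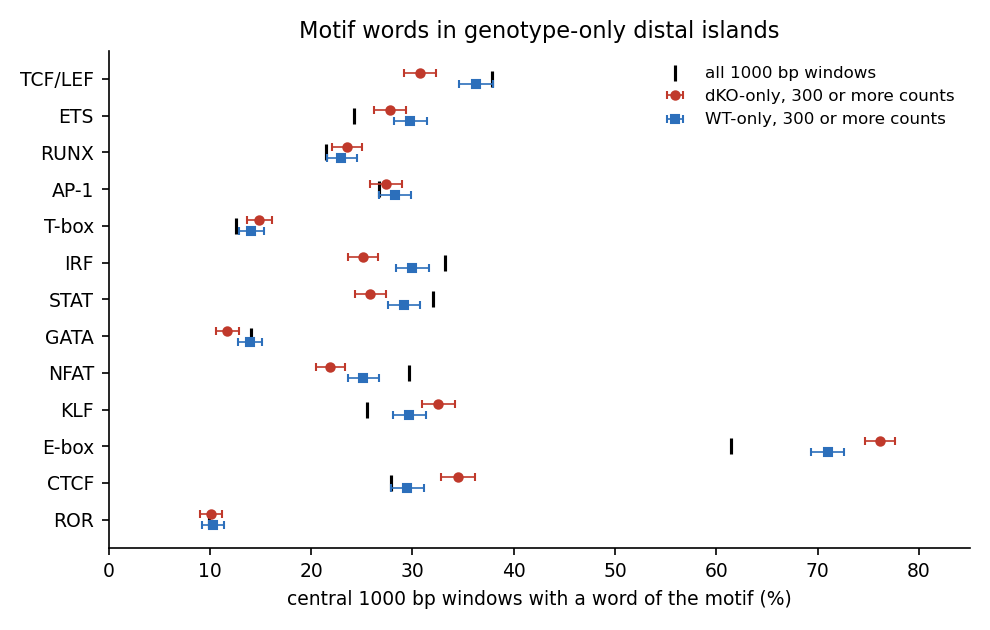
Percent of central 1000 bp windows that hold a word of each of 13 motifs (horizontal axis) for dKO-only and WT-only distal islands of 300 or more reads, with 95% Wilson intervals, and for all tiled windows of chromosomes 1 to 19 (black ticks). The TCF/LEF share is 30.7% in dKO-only and 36.3% in WT-only islands, and the E-box and CTCF shares are higher in dKO-only islands, differences that were not clear within bins of GC content.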

How the data were processed

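H3K27ac ChIP-seq libraries of naive CD8+ T cells were aligned to mm9 and counted by the authors, who pooled the replicates of each genotype before calling islands. Per the labels and the submitters' processing notes, the tools were Bowtie2 2.2.5, FastQC and SICER 1.1, with a window of 200 bp, a gap of 400 bp and a false discovery rate of 0.01. The deposited lists give the read counts of each island as whole numbers, unscaled for depth or width, and nothing where no island was called. Island widths were multiples of 200 bp, islands of a list were at least 600 bp apart, and the fewest counts were 58 (WT) and 43 (dKO). Read totals were not analysed here, so counts were scaled to the island total of each list. Input samples had no values of their own.

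Starts were converted to positions counted from 1. Genes and TSSs came from GENCODE vM1 on NCBIM37. CPM, distances, contexts, groups of islands up to 12.5 kb apart, motif words in the central 1000 bp and the uniqueness of 50-base words taken every 50 bases were computed with Python 3.11.15, NumPy 2.4.6, pandas 2.3.3, SciPy 1.17.1, Numba 0.67.0 and Matplotlib 3.10.9, with 95% Wilson intervals. The overlap and word searches were tested on simulated data. No p-value was computed, since islands are not replicates and each genotype is 1 pool. The study's lists of genes, SEs, hubs and accessible sites were read for names and positions only. Of the listed genes, 300 of 312 with higher and 250 of 257 with lower RNA were matched, 281 and 236 of them on chromosomes 1 to 19, older symbols through a RefSeq table.

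The islands, gene lists and motifs were chosen with earlier results of these data known. Named were the 10 islands with the most reads, the 5 densest, the 5 groups with the most islands, up to 3 genes per list, the 6 and 3 leading genes with higher and lower RNA, the islands with an accessible site, those at the limits, and Tcf7, Lef1, Prdm1, Gzmb, Ccl5, Ctla4 and Nrp1. Others were named after their values were seen. Islands on chromosome 18 were counted but not named.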

Additional observations from a re-analysis of the deposited data

How the results depend on the processing

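Each genotype was deposited as 1 pool, so no replicate could be left out, and with a deeper WT pool an island missing from the WT list may still hold WT reads below the calling limit. No paired analysis was possible because the lists hold pooled reads, with no values per replicate. With a minimum of 200 reads there were 7570 islands, of which 39.2% were intergenic, 57.0% lay within 5 kb of a WT island and 33.0% held a TCF/LEF word, and 37.01% of genes with higher and 23.3% of genes with lower RNA had one (20% of all genes). With a minimum of 500 there were 811, 35.02% intergenic, and these shares of genes were 13.9% and 3.81% (3.19% of all genes). Leaving out islands within 5 kb of a WT island left 1301, with 13.2% and 3.39% of the genes (4.59% of all). Joining islands within 1 kb moved the share within 5 kb of a WT island to 46.6% and those of genes with higher and lower RNA to 17.4% and 8.47% (8.58% of all). A TSS distance over 5 kb gave 38.7% intergenic and 55.8% within 5 kb of WT. Assigning islands to the gene body and 50 kb upstream gave 28.1% and 16.1% of the genes (15.3% of all). The TCF/LEF share was 11.4% in the central 300 bp and 82.8% over whole islands. The middle base alone, chosen after seeing the data, gave 39.97% intergenic. The other 30 values, among them those without WT islands under 100 reads, with 10% cover required for sharing and with the TSSs of all annotated genes, moved by less than their interval or, for the number of islands, by under 1.5 times. The cause of these shifts was not tested.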

Other observations

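At Nrp2 the 6 dKO-only islands all lay downstream of its TSS, 13000 to 62800 bp from the nearest WT island, farther than the median gap of 3.8 kb. At Ankrd55 the 6 islands all lay upstream, 47.9 to 192 kb from its TSS. At Csf1, listed with higher RNA, 3 islands with 722, 1149 and 473 reads lay side by side upstream of the gene, the last of them over the accessible site.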
